A study of Mus musculus with 8 samples.

Results

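The genes described here encode the inducible and constitutive heat shock proteins and the mitochondrial chaperonin. They are Hspa1a, Hspa1b, Hspa8, Hsph1, Dnajb1, Hspb1, Hsp90aa1, Hsp90ab1, Hspd1 and Hspe1. Rows of the deposited count table were taken where the gene symbol equalled one of these names, and 10 of 10 names were found among 22155 genes. All 10 passed the filter on low counts, which kept 13999 genes.

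The table held RNA-seq counts of mouse liver in 8 libraries, 2 for each of 4 groups. The Yap1 knockout group carried floxed Yap1 alleles and received AAV8-iCre, a virus that carries the Cre recombinase, for deletion in hepatocytes. Its Yap control group carried the same homozygous floxed Yap1 alleles and received AAV8-GFP. The Ctgf knockout group held conditional Ctgf knockouts (the sources used here name no Cre driver), and the Ctgf control group held mice with homozygous floxed Ctgf alleles. No virus is named for the Ctgf groups. The mice of all 4 groups were C57BL/6 by label and 8 to 10 weeks old (8 weeks in the design text). All were fed the Lieber-DeCarli liquid diet with ethanol, at 1% for 2 days and then at 2% for 10 days. All received 1 intraperitoneal dose of carbon tetrachloride, a liver toxin, of 1 µl per g, and livers were removed 2 days later. The study asked what Yap1, a coactivator held back by the Hippo pathway, and Ctgf, a secreted matrix-associated protein, contribute to the transcripts of this injured liver.

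Heat shock proteins are molecular chaperones, which bind unfolded proteins and help them fold. HSP70 proteins bind and release short stretches of a client in a cycle driven by ATP, J-domain proteins deliver clients and start ATP hydrolysis, and HSP110 proteins exchange the nucleotide. HSP90 finishes the folding of kinases and receptors, small heat shock proteins hold unfolded clients without ATP, and HSP60 with HSP10 forms a folding chamber in mitochondria. On heat, oxidants or toxic metabolites the transcription factor HSF1 forms trimers that bind repeats of the element nGAAn in the promoters of these genes, and hepatocytes are known to use the response after toxic injury.

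Promoter sequence was looked up because these genes share HSF1 as a known regulator. RefSeq windows of GRCm38.p6, from 250 bases before to 50 bases after the start site, were at hand for 7 of the 10 genes; Hspa8, Hsp90aa1 and Hsp90ab1 had no entry. The motifs searched were GAANNTTC and TTCNNGAA, which are pairs of inverted element units. Both read the same on either strand, so a match counts for both strands, and matches of the 2 motifs may overlap in a run of 3 units such as GAANNTTCNNGAA. For each gene the window whose start site was nearest the start of the annotated gene was taken. A match was found in 5 of the 7 windows, whereas 15.06% of 32851 mouse promoter windows hold either motif. GAANNTTC is in 7.86% of them, TTCNNGAA in 8.52% and GAANNTTCNNGAA in 0.603%. Among the 5, the windows of Hspa1a and Hspa1b are near copies with the same match, so they do not count as separate finds. A match is a description of the letters and not a bound site. The 5 windows with a match are printed 5′ to 3′ on the strand of the gene, with the matches in capitals.
Hspa1b (chr17:34959189-34959488, minus strand): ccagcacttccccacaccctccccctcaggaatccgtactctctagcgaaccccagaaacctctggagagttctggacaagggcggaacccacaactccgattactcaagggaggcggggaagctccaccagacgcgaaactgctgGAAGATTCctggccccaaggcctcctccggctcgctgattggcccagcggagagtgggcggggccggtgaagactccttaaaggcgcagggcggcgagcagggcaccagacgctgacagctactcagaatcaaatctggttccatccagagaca
Hspa1a (chr17:34972107-34972406, minus strand): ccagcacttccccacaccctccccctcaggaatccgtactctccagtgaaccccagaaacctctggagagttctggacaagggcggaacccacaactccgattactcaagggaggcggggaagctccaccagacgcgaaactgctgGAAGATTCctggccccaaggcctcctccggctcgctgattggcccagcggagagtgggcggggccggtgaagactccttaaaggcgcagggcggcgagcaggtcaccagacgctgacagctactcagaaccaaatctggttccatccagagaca
Hsph1 (chr5:149636287-149636586, minus strand): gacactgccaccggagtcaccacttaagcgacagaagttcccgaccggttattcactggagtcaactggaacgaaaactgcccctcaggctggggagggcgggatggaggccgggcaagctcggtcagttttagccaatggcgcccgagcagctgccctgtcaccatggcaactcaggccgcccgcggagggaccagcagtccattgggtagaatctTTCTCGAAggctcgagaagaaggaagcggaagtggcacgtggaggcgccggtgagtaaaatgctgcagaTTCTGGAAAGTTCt
Hspb1 (chr5:135887669-135887968, plus strand): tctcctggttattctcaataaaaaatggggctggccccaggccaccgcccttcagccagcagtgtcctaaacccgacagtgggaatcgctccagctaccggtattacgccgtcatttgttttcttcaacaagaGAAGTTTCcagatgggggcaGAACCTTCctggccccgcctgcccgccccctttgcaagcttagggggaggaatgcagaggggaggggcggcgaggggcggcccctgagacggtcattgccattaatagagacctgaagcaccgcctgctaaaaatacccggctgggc
Hspe1 (chr1:55087898-55088197, plus strand): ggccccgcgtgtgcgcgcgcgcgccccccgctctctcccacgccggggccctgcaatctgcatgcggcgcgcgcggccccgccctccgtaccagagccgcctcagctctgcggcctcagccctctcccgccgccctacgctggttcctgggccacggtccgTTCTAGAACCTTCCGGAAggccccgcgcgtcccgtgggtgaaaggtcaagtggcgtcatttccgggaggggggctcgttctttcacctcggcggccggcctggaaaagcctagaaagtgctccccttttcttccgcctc

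With the start site as 0, a single match, GAAGATTC, starts at -104 in both Hspa1b and Hspa1a. These neighbouring windows are 98.67% identical and differ at 4 of 300 positions. Counted from 1 at the 5′ end, with the base of Hspa1b first, the differences are T44C, C47T, G249T and T276C, all outside the match. Hspb1 holds 2 separate matches that start at -117 and -97. Hsph1 holds 1 match at -33, and 2 that overlap and start at 36 and 41. In Hspe1 3 overlapping matches start at -89, -84 and -79 and form 1 unbroken run of inverted units. Hspd1 and Hspe1 are head-to-head neighbours on opposite strands. The RefSeq window of Hspd1 holds no match, but a second Hspd1 start listed in RefSeq has the window chr1:55087883-55088182, which shares 285 bases with the Hspe1 window and holds the same 3 matches. The window of Dnajb1 (chr8:83607925-83608224, plus strand) holds none, which says only that these letters are absent there. RefSeq lists a second start for Dnajb1 and for Hsph1 too, and the windows of those starts were not read for matches here.

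In the GENCODE annotation of GRCm38 all 10 are protein-coding genes, and positions below are those of the gene from first to last exon. The inducible HSP70 genes are neighbours on chromosome 17, Hspa1b at 34956436 to 34959238 and Hspa1a at 34969190 to 34972156, both on the minus strand and 9951 bases apart. Their counts are uncertain, since 62.3% of the 50-base stretches of the Hspa1b transcript and 66.3% of those of Hspa1a also occur in transcripts of other genes. Copies and pseudogenes likewise share 50.1% of Hspb1, 47.5% of Hsp90aa1, 42.1% of Hspd1, 39.4% of Hspa8 and 22.8% of Hspe1, so reads of these could have been dropped or moved. Hsph1 shares 0%, Dnajb1 0.412% and Hsp90ab1 3.44%. Hspd1 and Hspe1 overlap by 112 bases on opposite strands, and the sources used here do not say whether counting used the strand.

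Library totals ran from 26904021 to 33488609 counts, of which the 10 genes took 78181 to 218318. Levels are in CPM, counts scaled to the TMM-adjusted library size, and a count of 3, used as the floor, is 0.0830 to 0.1235 CPM. The targeted genes check the labels. Yap1 had 31.0 and 32.5 CPM in the Yap1 knockouts, against 107 and 76.1 CPM in the Yap controls (edgeR adjusted p = 0.0557). Ctgf stood at 8.02 CPM in Ctgf knockout replicate 1 and at 49.2 CPM in the library labelled Ctgf knockout replicate 2. The Ctgf controls had 28.8 and 32.1 CPM, so Ctgf was not lower in the second library. In whole liver, with no Cre driver named, this puts its label in doubt but does not settle whether it is right. Yap control replicate 2 stood apart through pancreatic transcripts: 12 exocrine pancreas markers summed to 13788 CPM there, with none at 0, and to 3.13 to 7.72 CPM in the other 7 libraries, where 4 to 10 of the 12 were at 0. The 9 hepatocyte markers in the table summed to 72564 to 133066 CPM, and none was at 0 in any library. The marker lists of other liver cells were present throughout, at 320 to 893 CPM for Kupffer cells, 341 to 928 CPM for sinusoidal endothelium and 96.2 to 470.1 CPM for erythroid cells. Counts of called genes were also taken without these 2 libraries.

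Across the 8 libraries the share of counts taken by the heat shock genes differed by mouse line. Their share was 0.257% and 0.259% in the 2 Yap1 knockout libraries, and 0.320% and 0.365% in the 2 Yap control libraries. It was 0.622% and 0.426% in the pair labelled Ctgf knockout, and 0.610% and 0.654% in the Ctgf control libraries. The lowest share of the Ctgf line, that of the library labelled Ctgf knockout replicate 2, was above the highest of the Yap line. On the log2 scale the median gene lay 0.82 and 0.95 below its mean over all libraries in the Yap1 knockouts, and 0.49 and 0.40 below it in the Yap controls. It lay 0.86 and 0.15 above that mean in the libraries labelled Ctgf knockout, and 0.87 and 0.81 above it in the Ctgf controls.

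**Figure D1:**
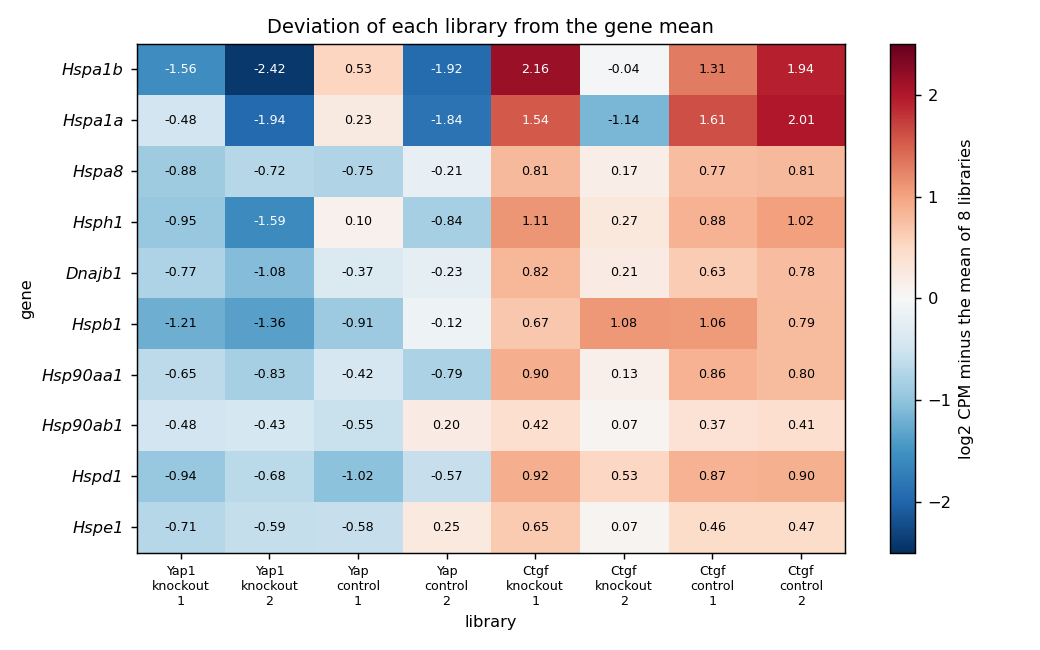
Each cell gives, for 1 gene (row) and 1 library (column), log2 CPM minus the mean of that gene over the 8 libraries; red is above the mean and blue below. In the Yap1 knockouts all 10 genes are below their mean and in the Ctgf controls all 10 are above it, with the Hspa1a and Hspa1b rows showing the widest range.

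Levels were set by the merged length of all annotated exons of a gene, which can exceed that of a single transcript. The order of genes close to each other can depend on this choice. On that scale the constitutive cytosolic chaperones were the most abundant. In the Ctgf controls Hsp90ab1, the constitutive HSP90, averaged 1060.3 ± 21.8 CPM per kb of exon (SD, n = 2), followed by the constitutive HSP70 Hspa8 at 326 ± 6.51 CPM per kb. The HSP60 chaperonin Hspd1 came next at 190 ± 2.30 CPM per kb, and then the small heat shock protein Hspb1 at 129 ± 16.8 CPM per kb. Hsp90aa1, the inducible HSP90, stood at 65.3 ± 2.01 CPM per kb, the HSP110 gene Hsph1 at 50.7 ± 3.65, and the J-domain gene Dnajb1 at 42.2 ± 2.93. Hspe1, the HSP10 partner of Hspd1, had 37.6 ± 0.150 CPM per kb. The inducible HSP70 genes were the least abundant, at 25.7 ± 7.86 CPM per kb for Hspa1b and 3.17 ± 0.611 for Hspa1a, both read from shared sequence.

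The same order in the Yap1 knockouts also had Hsp90ab1 (591 ± 13.1 CPM per kb) and Hspa8 (108 ± 8.82) on top, and Hspa1b (2.14 ± 0.877) and Hspa1a (0.438 ± 0.290) at the bottom. Lower down the spreads run into each other. Hspe1 at 17.4 ± 1.02, Dnajb1 at 13.7 ± 2.08 and Hsph1 at 11.1 ± 3.40 CPM per kb are neighbours, and Dnajb1 and Hsph1 differ by less than their SDs together. In the Ctgf controls Dnajb1 and Hspe1 differ by more than both SDs together, and in the Yap controls Hspe1 (25.3 ± 10.0), Hsp90aa1 (24.4 ± 4.41), Hsph1 (21.4 ± 9.48) and Dnajb1 (21.0 ± 1.43) do not. In the Ctgf line the libraries labelled knockout averaged 964 ± 166 CPM per kb for Hsp90ab1 and 271 ± 83.9 for Hspa8. The Yap controls averaged 739 ± 266 for Hsp90ab1 and 137 ± 35.8 for Hspa8.

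**Figure D2:**
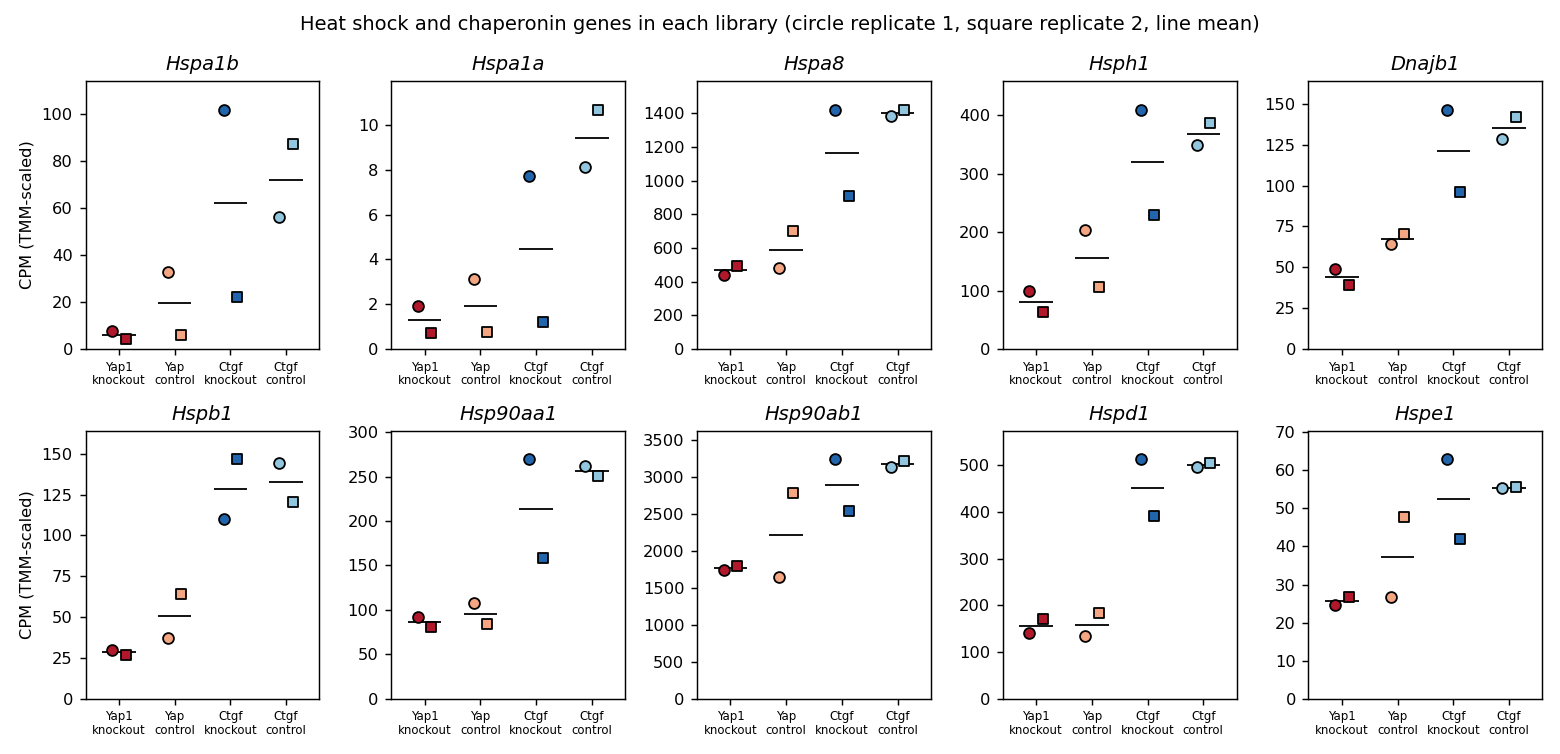
CPM of each gene (y axis, linear from 0, a scale of its own per panel) in the 4 groups, with a circle for replicate 1, a square for replicate 2 and a line at the mean. Hspa8, Hsph1, Dnajb1, Hspb1, Hsp90aa1 and Hspd1 have all 4 Yap line points below all 4 Ctgf line points, as do 11.2% of all genes tested.

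The first comparison asked how loss of hepatocyte Yap1 altered the injured liver. None of the 10 heat shock genes passed the test, although the log2 fold changes of all 10 were below 0, from -0.03 for Hspd1 to -1.70 for Hspa1b, with a median of -0.57. The median over all genes tested was 0.00. With edgeR's quasi-likelihood test and Benjamini-Hochberg adjustment 0 of the 10 were called, against 0.0286% of all genes in either direction. DESeq2 also called 0 of the 10, against 4.11% of the genes it tested. At an unadjusted p under 0.05 3 of the 10 were lower (Hsph1, Dnajb1 and Hspb1), against 7.14% of all genes. In 4 of the 10 (Hsph1, Dnajb1, Hspb1 and Hspe1) both knockout libraries were below both controls, against 20.8% of all genes. The libraries are of whole liver, so fewer cells of a type and less RNA per cell cannot be told apart in any value here.

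Of the inducible HSP70 genes, which stress raises from a low level, Hspa1b had 7.74 and 4.26 CPM in the Yap1 knockouts, while the Yap controls had 32.9 and 6.01 CPM. The groups overlap, because the second control is below the first knockout. Its log2 fold change was -1.70 (SE 0.884, edgeR adjusted p = 0.416), and it was -2.45 without Yap control replicate 2 and -0.03 without replicate 1. Hspa1a, the near-identical copy, had 1.91 and 0.692 CPM in the knockouts and 3.12 and 0.741 CPM in the controls. Those groups overlap as well (log2 fold change -0.59, SE 0.943, adjusted p = 0.773). With the counts of both copies summed the log2 fold change was -1.56 (adjusted p = 0.442).

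Hspa8, the constitutive HSP70 of the cytosol, had 439 and 493 CPM in the Yap1 knockouts and 480.4 and 698 CPM in the Yap controls. One control lies between the 2 knockouts (log2 fold change -0.34, SE 0.299, adjusted p = 0.599), and the log2 fold change ran from -0.61 to -0.04 with 1 library left out. Among the partners of HSP70, Hsph1 had 98.4 and 63.4 CPM in the knockouts and 204 and 106 CPM in the controls. Both knockouts are below both controls, by a small step between the nearest libraries (log2 fold change -0.94, SE 0.402, adjusted p = 0.359). Dnajb1, whose protein starts the ATP cycle of HSP70, had 48.7 and 39.3 CPM in the knockouts and 64.0 and 70.5 CPM in the controls. The groups do not overlap and the spread within each is narrow (log2 fold change -0.61, SE 0.247, adjusted p = 0.344).

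Hspb1, an ATP-independent holder of unfolded proteins, had 29.9 and 27.03 CPM in the Yap1 knockouts and 36.9 and 63.9 CPM in the Yap controls. It has the smallest p of the 10 in this comparison, with both knockouts under both controls and the controls far apart (log2 fold change -0.82, SE 0.292, adjusted p = 0.2995). The stress-inducible Hsp90aa1 had 92.1 and 81.0 CPM in the knockouts and 108 and 83.6 CPM in the controls. Its groups overlap (log2 fold change -0.15, SE 0.282, adjusted p = 0.8125). Hsp90ab1 had 1745 and 1801 CPM in the knockouts and 1653 and 2781 CPM in the controls, so the controls lie on either side of the knockouts (log2 fold change -0.32, SE 0.310, adjusted p = 0.628).

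Of the mitochondrial pair, Hspd1, the chamber subunit, had 142 and 169.6 CPM in the Yap1 knockouts and 134 and 183 CPM in the Yap controls. The controls again lie on either side of the knockouts (log2 fold change -0.03, SE 0.249, adjusted p = 0.965). Hspe1, the lid of the chamber, had 24.5 and 26.6 CPM in the knockouts and 26.8 and 47.7 CPM in the controls. The nearest libraries of its 2 groups almost touch (log2 fold change -0.54, SE 0.306, adjusted p = 0.442).

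The Yap controls differed from each other by more than the other groups did, and the heat shock genes split over them in opposite ways. Hspa1b was 2.45, Hspa1a 2.08 and Hsph1 0.94 log2 units higher in Yap control replicate 1 than in replicate 2. Hspe1 was 0.83, Hspb1 0.79 and Hsp90ab1 0.75 log2 units lower in replicate 1. The median absolute difference over all genes tested was 0.50 in this pair, against 0.18 in the Yap1 knockouts, 0.30 in the pair labelled Ctgf knockout and 0.11 in the Ctgf controls. Against replicate 1 alone the log2 fold changes were -1.33 for Hsph1, -0.37 for Hspb1 and -0.07 for Hspe1. Against replicate 2 alone they were -0.42, -1.19 and -0.93 for the same genes.

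Leaving out libraries changed which genes were called. With 2 libraries left out, the one labelled Ctgf knockout replicate 2 and Yap control replicate 2, Hspa1b (adjusted p = 0.0241) and Hsph1 (adjusted p = 0.0358) were called lower in the Yap1 knockouts. That fit called 938 genes (6.58% of those tested), against 4 with all libraries. Without Yap control replicate 1, Hspb1 (adjusted p = 0.0147) and Hspe1 (adjusted p = 0.0333) were called lower instead. There 3728 genes (25.8%) were called, so 2 of 10 is no larger a share than among all genes. In both fits the Yap control group is a single library, as is the labelled Ctgf knockout group in the first, and such a library is taken to vary like the other groups. Without Yap control replicate 2 alone, the count was 0 of the 10, against 0.28% of all genes. Over all 8 single libraries left out, the adjusted p ranged from 0.257 to 0.986 for Hspa1b, from 0.211 to 0.834 for Hsph1, from 0.0147 to 0.834 for Hspb1 and from 0.0333 to 0.928 for Hspe1. Exocrine pancreas markers moved with replicate 2, at 13788 CPM there and 3.29 CPM in replicate 1, and their part in these values was not tested. Neutrophil markers (10 of 10 in the table, none at 0) summed to 986 and 493 CPM in the knockouts and 130 and 255 CPM in the controls. Erythroid markers summed to 470.1 and 404.7 CPM in the knockouts and 124 and 231 CPM in the controls. Sinusoidal endothelial markers summed to 928 and 877 CPM in the knockouts and 815 and 516 CPM in the controls. The part of these lists was not tested either.

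**Figure D3:**
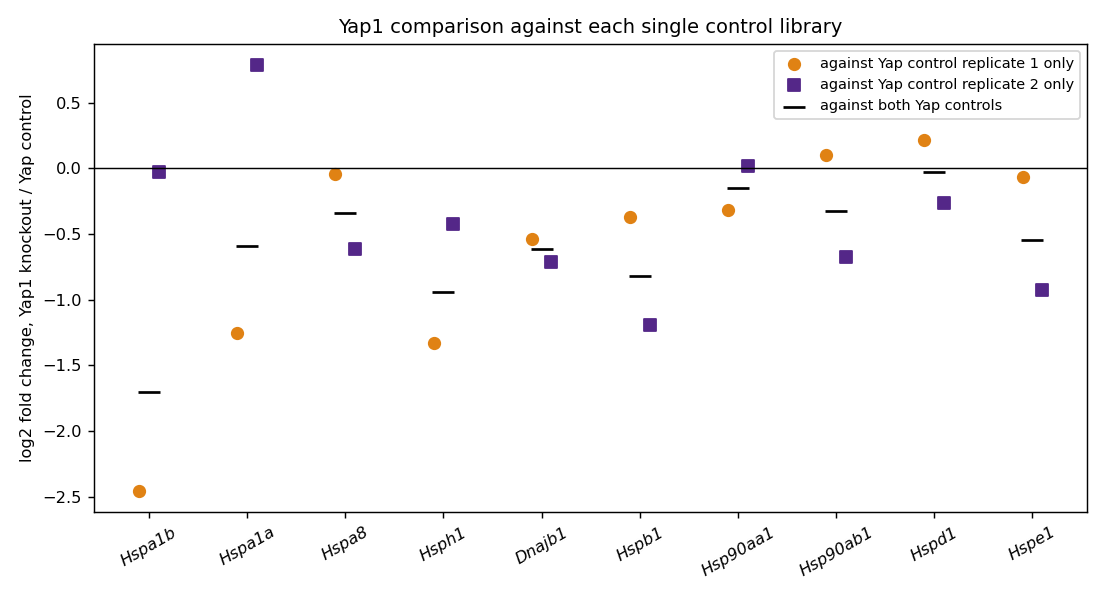
Log2 fold change of each gene in the Yap1 knockouts against Yap control replicate 1 alone, replicate 2 alone and both (black bar). Hspa1a, Hspa1b and Hsph1 are lower against replicate 1, Hspb1, Hspe1 and Hsp90ab1 lower against replicate 2, and Dnajb1 nearly the same against either.

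The second comparison asked what loss of Ctgf did, and none of the 10 heat shock genes passed its test. With edgeR's quasi-likelihood test 0 of the 10 were called after Benjamini-Hochberg adjustment and 0 at an unadjusted p under 0.05. Over all genes the shares were 0% called in either direction and 1.32% lower at an unadjusted p under 0.05. DESeq2 called 0 of the 10 too, against 0.0227% of the genes it tested. All 10 log2 fold changes were below 0, from -1.08 for Hspa1a to -0.05 for Hspb1, with a median of -0.18 beside 0.01 over all genes, and each adjusted p was 1. Hspa1a was the only gene of the 10 whose groups did not overlap, against 16.8% of all genes that were lower in this way.

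The values turn on the library labelled Ctgf knockout replicate 2, in which Ctgf itself was not lower. Hspa1b had 102 and 22.1 CPM in the libraries labelled Ctgf knockout, against 56.4 and 87.6 CPM in the Ctgf controls, so the labelled knockouts lie on either side of the controls. Hspa1a had 7.73 and 1.21 CPM in the labelled knockouts, where the controls had 8.13 and 10.7 CPM. Hsph1 had 409.9 and 229 CPM in the labelled knockouts and 349.7 and 387 CPM in the controls, again on either side.

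Hspa8 had 1419 and 909 CPM in the libraries labelled Ctgf knockout and 1382 and 1422 CPM in the Ctgf controls. Dnajb1 had 146 and 95.8 CPM in the labelled knockouts and 129 and 142 CPM in the controls. Replicate 1 was near the controls and replicate 2 under them in both genes. The HSP90 genes did likewise: Hsp90aa1 had 269.5 and 158 CPM in the labelled knockouts and 262 and 251 CPM in the controls. Hsp90ab1 had 3243 and 2539 CPM in the labelled knockouts and 3134 and 3226 CPM in the controls. The second library is the lowest of the 4 in each.

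For the chaperonin, Hspd1 had 513 and 392 CPM in the libraries labelled Ctgf knockout and 497 and 505 CPM in the Ctgf controls. Hspe1 had 62.9 and 42.1 CPM in the labelled knockouts and 55.3 and 55.6 CPM in the controls. Both show the same split, with replicate 2 low. Hspb1 alone of the 10 ran the other way, with 110.1 and 147 CPM in the labelled knockouts and 145 and 120.3 CPM in the controls, its replicate 2 being the highest. Without that library 8 of the 10 log2 fold changes were above 0 and their median was 0.05, all with an adjusted p of 1. Hepatocyte markers summed to 121677 CPM in that library and to 72564 to 78883 CPM in the other 3 of the Ctgf line, which was not tested as a part of this.

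Whether the Yap1 and Ctgf effects differ was tested in the same fit, and none of the 10 genes passed that test. With edgeR's quasi-likelihood test 0 of the 10 were called, against 0% of all genes in either direction. DESeq2 called 0 of the 10 as well, against 1.19% of the genes it tested. At an unadjusted p under 0.05 0 of the 10 passed, against 8.87% of all genes. The difference of the log2 fold changes, Yap1 effect minus Ctgf effect, ran from -1.49 for Hspa1b (SE 1.21) to 0.49 for Hspa1a (SE 1.30), with a median of -0.32 and 7 of the 10 below 0. The smallest adjusted p was that of Hspb1, at 0.595 for a difference of -0.78 (SE 0.410). Without Yap control replicate 1 that of Hspb1 was -1.16 with an adjusted p of 0.0449, in a fit that called 2092 genes (14.5% of those tested), with a single Yap control. These intervals are wide, and a p above the threshold does not show that the effects are alike.

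The third comparison set the controls of both lines side by side, Yap controls against Ctgf controls. It shares the Yap controls with the Yap1 comparison and the Ctgf controls with the Ctgf comparison. Virus, floxed allele, and any batch or kit difference between the lines cannot be told apart in it. All 10 genes had both Yap controls below both Ctgf controls, against 27% of all genes. Hsp90aa1 and Hspd1 fell by edgeR's test (2 of 10 called lower, against 1.11% of all genes lower and 2.38% in either direction), and 7 of 10 were lower at an unadjusted p under 0.05, against 10.4% of all genes. The median log2 fold change was -1.32, beside 0.04 over all genes. Stellate cell markers summed to 1114 and 893 CPM in the Yap controls and to 425 and 422 CPM in the Ctgf controls. Sinusoidal endothelial markers summed to 815 and 516 CPM in the Yap controls and to 341 and 428 CPM in the Ctgf controls. The sums of hepatocyte, Kupffer cell, neutrophil, erythroid and exocrine pancreas markers overlapped between these groups. What these cell types add to the values was not tested.

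Hspd1, the HSP60 of the mitochondrial chamber, averaged 158 ± 34.4 CPM in the Yap controls and 501 ± 6.08 CPM in the Ctgf controls (SD, n = 2 each). It was 3.16-fold lower, with a log2 fold change of -1.66 (SE 0.256, edgeR adjusted p = 0.0322). Hsp90aa1, the stress-inducible HSP90, averaged 95.9 ± 17.3 CPM in the Yap controls and 257 ± 7.91 CPM in the Ctgf controls. It was 2.68-fold lower (log2 fold change -1.42, SE 0.287, adjusted p = 0.0495), which is at the edge of the threshold. In a fit of these 4 libraries alone the adjusted p was 0.0930 for Hspd1 and 0.0969 for Hsp90aa1. Leaving out 1 library at a time gave 0.0147 to 0.303 for Hspd1 and 0.0210 to 0.387 for Hsp90aa1, with log2 fold changes of -1.91 to -1.43 and -1.60 to -1.25. Hsp90aa1 was past the threshold no longer without Yap control replicate 2 (adjusted p = 0.0669), while Hspd1 was still called (adjusted p = 0.0189).

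The other members had lower means in the Yap controls without passing the threshold. Hspb1 averaged 50.4 ± 19.1 CPM in the Yap controls and 132 ± 17.3 CPM in the Ctgf controls (log2 fold change -1.40, SE 0.295, edgeR adjusted p = 0.0552). Hspa8 averaged 589 ± 154 CPM in the Yap controls and 1402 ± 28.0 CPM in the Ctgf controls (log2 fold change -1.25, SE 0.303, adjusted p = 0.0742). Dnajb1 averaged 67.3 ± 4.59 CPM in the Yap controls and 135 ± 9.39 CPM in the Ctgf controls (log2 fold change -1.01, SE 0.248, adjusted p = 0.0770). Each of these genes has a gap between the groups wider than both SDs. Hsph1, the HSP110 exchange factor, averaged 155 ± 68.9 CPM in the Yap controls and 368 ± 26.5 CPM in the Ctgf controls (log2 fold change -1.25, adjusted p = 0.1325).

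The inducible HSP70 copies had the largest log2 fold changes and the widest errors, at -2.26 (SE 0.932, adjusted p = 0.204) for Hspa1a and -1.88 (SE 0.870, adjusted p = 0.247) for Hspa1b. Hsp90ab1, at 2217 ± 798 CPM in the Yap controls and 3179.7 ± 65.4 CPM in the Ctgf controls, was among the closest (log2 fold change -0.52, adjusted p = 0.353). Hspe1 averaged 37.3 ± 14.8 CPM in the Yap controls and 55.5 ± 0.221 CPM in the Ctgf controls (log2 fold change -0.57, adjusted p = 0.302). With 1 library left out the log2 fold change ran from -0.95 to -0.17 for Hsp90ab1, from -1.05 to -0.19 for Hspe1, from -3.64 to -1.60 for Hspa1a and from -3.56 to -1.13 for Hspa1b. The log2 fold change of Hspd1 was larger in size than that of its partner Hspe1, a contrast between genes that was not tested. DESeq2 called 6 of the 10 lower, namely Hspa8, Hsph1, Dnajb1, Hspb1, Hsp90aa1 and Hspd1, and it called 1605 genes (11.3%) in all, against 333 with edgeR. Without both doubted libraries 7 of the 10 were called, among 4056 genes (28.4%).

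The lines were also compared over all 4 libraries of each, knockouts included, which was chosen after seeing the data. With edgeR's quasi-likelihood test 8 of the 10 were lower in the Yap line, against 7.49% of all genes lower and 17.6% in either direction. The exceptions were Hspa1a (log2 fold change -2.01, adjusted p = 0.0726) and Hsp90ab1 (log2 fold change -0.61, adjusted p = 0.0910). Hspb1 averaged 39.4 ± 16.8 CPM in the Yap line and 130.4 ± 18.1 CPM in the Ctgf line (SD, n = 4 each; log2 fold change -1.78, SE 0.211, adjusted p = 0.00301). Hspd1 averaged 157 ± 23.0 CPM in the Yap line and 477 ± 57.1 CPM in the Ctgf line (log2 fold change -1.60, SE 0.180, adjusted p = 0.00291). Dnajb1 averaged 55.6 ± 14.2 CPM in the Yap line and 128 ± 22.9 CPM in the Ctgf line (log2 fold change -1.23, SE 0.176, adjusted p = 0.00507). In 6 of the 10 no Yap line library reached any Ctgf line library, against 11.2% of all genes. The count of calls was 4 to 9 of the 10 when 1 library was left out, with 448 to 4541 genes called in all (3.08% to 31.4%). Without both doubted libraries it was 10 of 10, with 6768 genes (47.5%) called.

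**Figure D4:**
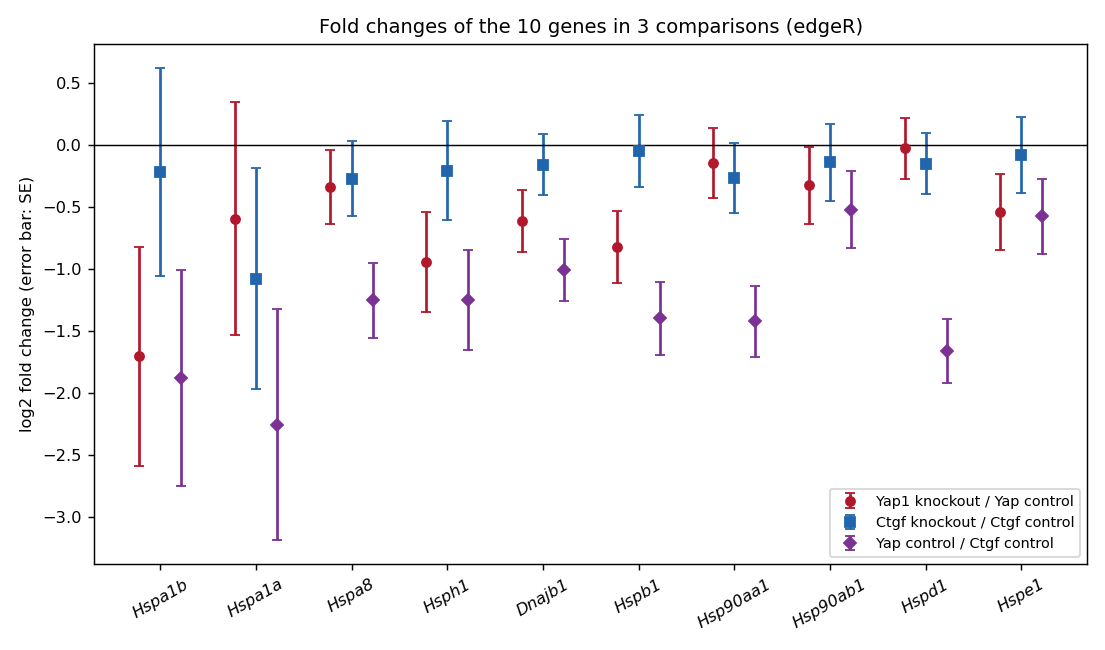
Log2 fold change of each gene with its standard error (n = 2 libraries per group) in the Yap1 comparison, in the Ctgf comparison and between the controls of the lines. The values of the control lines sit lowest for each gene, Hspd1 showing -1.66 between the lines and -0.03 in the Yap1 comparison.

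The other chaperone genes of the pathway were counted from 8 lists of 95 genes, 94 of them in the table and 92 tested. In the Yap1 comparison 0 of the 92 were called by edgeR, against 0.0286% of all genes in either direction. At an unadjusted p under 0.05 12 passed (2 higher and 10 lower, against 7.14% of all genes lower). Their median log2 fold change was -0.11, beside 0.00 over all genes. The cochaperones of HSP70 and HSP90 had 17 of 20 below 0, with a median of -0.35. Fkbp4, an HSP90 cochaperone of steroid receptors, averaged 75.1 ± 22.4 CPM in the Yap1 knockouts and 180.0 ± 18.5 CPM in the Yap controls (log2 fold change -1.26, adjusted p = 0.123). Bag2, which holds back the ubiquitin ligase bound to HSP70, averaged 9.44 ± 1.29 CPM in the knockouts and 3.80 ± 0.0960 CPM in the Yap controls (log2 fold change 1.31, adjusted p = 0.140).

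The HSF list had 4 of 5 below 0 (median -0.49). Hsf1, the heat shock transcription factor, averaged 18.0 ± 3.73 CPM in the Yap1 knockouts and 25.2 ± 1.10 CPM in the Yap controls (log2 fold change -0.49, adjusted p = 0.358). HSP70 and HSP110 relatives had 7 of 10 above 0 (median 0.04). Of the J-domain genes, Dnaja1 had a log2 fold change of -0.90 (adjusted p = 0.215) and Dnajb2 one of -0.69 (adjusted p = 0.238). The list of J-domain genes as a whole split 8 above and 9 below 0. TRiC and prefoldin, the cytosolic chaperonin and its feeder, had 11 of 13 below 0 with a median of -0.15, and mitochondrial chaperones and proteases 8 of 10 with a median of -0.26. ER chaperones had 7 of 11 above 0 and a median of 0.12. Small heat shock proteins had 4 of 6 above 0 (median 0.27), among them Cryab at 21.9 ± 5.38 CPM in the knockouts and 11.01 ± 0.966 CPM in the controls (adjusted p = 0.210). Immediate early genes, listed as another stress response, had 16 of 20 above 0, with a median of 0.69. Of these 0 were called, against 0.0286% of all genes. The 18 genes that the rule named here ran from -1.26 (Fkbp4) to 1.79 (Btg2, an antiproliferative immediate early gene, adjusted p = 0.0557).

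In the Ctgf comparison 0 of the 92 chaperone genes were called by edgeR, against 0% of all genes in either direction. At an unadjusted p under 0.05 0 passed, against 1.32% of all genes lower. Their median log2 fold change was -0.03. For the difference between the effects 0 were called as well, against 0% of all genes in either direction. At an unadjusted p under 0.05 6 passed (2 higher and 4 lower), against 8.87% of all genes in either direction. The log2 fold changes of the rule-named genes ran from -0.86 to 0.66 in the Ctgf comparison.

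Between the control lines 64 of the 92 chaperone genes were below 0 (median -0.35), and 1 was called, against 2.38% of all genes. Cryab, a small heat shock protein, rose: it averaged 11.01 ± 0.966 CPM in the Yap controls and 3.36 ± 0.558 CPM in the Ctgf controls (log2 fold change 1.71, SE 0.278, adjusted p = 0.0332), opposite in sign to Hspb1. Its adjusted p was 0.0170 to 0.349 when 1 library was left out. The ER chaperones had 10 of 11 below 0 with a median of -1.48, close to the median of the 10 heat shock genes. Pdia6, a disulfide isomerase, averaged 349.5 ± 93.7 CPM in the Yap controls and 1023 ± 78.0 CPM in the Ctgf controls (log2 fold change -1.55, adjusted p = 0.0543). Hspa5, the HSP70 of the endoplasmic reticulum, averaged 1605 ± 332 CPM in the Yap controls and 7914 ± 639 CPM in the Ctgf controls (log2 fold change -2.30, adjusted p = 0.0759). Serpinh1, a collagen chaperone of the same compartment, averaged 96.3 ± 74.5 CPM in the Yap controls and 18.1 ± 0.110 CPM in the Ctgf controls (log2 fold change 2.41, adjusted p = 0.0591, and 1.29 to 3.03 with 1 library left out). Stellate cell markers (8 of 8 in the table) summed to 893 to 1142 CPM in the Yap line and to 372 to 425 CPM in the Ctgf line. Between the control lines 7 of the 8 were above 0 and 4 were called higher, against 2.38% of all genes called in either direction. The part of these markers in the values above was not tested.

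J-domain genes had 16 of 17 below 0 between the control lines (median -0.45), HSP70 and HSP110 relatives 7 of 10 (median -0.66), TRiC and prefoldin 9 of 13 (median -0.30) and HSP70 and HSP90 cochaperones 13 of 20 (median -0.18). The mitochondrial chaperones and proteases split evenly, 5 above and 5 below 0 (median 0.02). Fkbp5, an HSP90 cochaperone that glucocorticoids induce, averaged 164 ± 29.5 CPM in the Yap controls and 60.4 ± 14.1 CPM in the Ctgf controls (log2 fold change 1.44, adjusted p = 0.0552). The HSF list had 3 of 5 below 0 (median -0.38), and small heat shock proteins other than Hspb1 had 5 of 6 above 0 (median 1.33). The summed level of that list went the other way, at 269 and 329 CPM in the Yap controls and 395 and 383 CPM in the Ctgf controls. Most of the sum was Hspb8, which averaged 376 ± 8.44 CPM in the Ctgf controls. Of the 20 immediate early genes 10 were above 0 (median 0.00), while Fosl1 (log2 fold change -2.08, adjusted p = 0.0427) and Dusp1 (log2 fold change -1.22, adjusted p = 0.0436) fell. Thus 2 of 20 were called lower, against 1.11% of all genes.

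**Figure D5:**
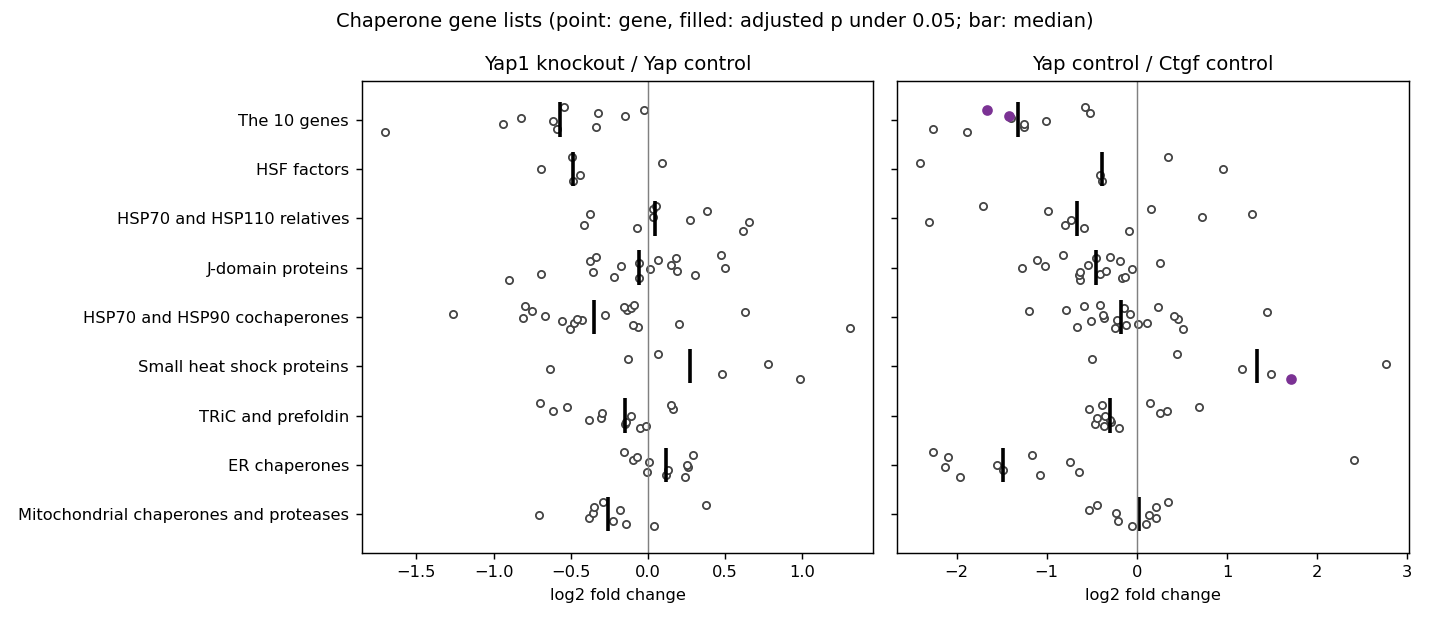
Log2 fold change of each tested gene (points) in the 10 heat shock genes and in each chaperone list, for Yap1 knockout against Yap control (left) and Yap control against Ctgf control (right), with a bar at the median; filled points passed an adjusted p of 0.05. Between the controls the ER chaperones and the 10 genes have medians of -1.48 and -1.32, while the mitochondrial list is at 0.02.

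Genes with the most similar profile over the 8 libraries were found for Dnajb1 and Hspd1, by the root mean square difference of log2 CPM centred on each gene, among 10301 candidates. Nearest to Dnajb1 were Mcfd2 (0.115), Mettl17 (0.125), Zbtb40 (0.151), Fam83g (0.164) and Tmem55a (0.176). Nearest to Hspd1 were Pxdc1 (0.138), Zswim4 (0.146), Dgkd (0.167), Psat1 (0.174) and Cd276 (0.174). For scale, the SD of log2 CPM over the libraries was 0.72 for Dnajb1 and 0.88 for Hspd1. The points share the contrast between the 2 lines.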

How the data were processed

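The authors deposited whole-number read counts per gene symbol for 8 liver libraries. RNA came from Trizol extracts of frozen liver, per the labels' protocols, which name both TruSeq and KAPA mRNA HyperPrep kits but not which library had which. The submitters' processing notes name HTSeq 0.6.1, STAR 2.6.0a and bcl2fastq 2.20.0.422 as tools and mm10 and GRCm38 as builds. The sources used here do not give the annotation or the strand setting, so reads of overlapping or antisense genes may not have been told apart.

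Groups came from the sample labels. Counts were tested with edgeR 4.0.16 (R 4.3.3; quasi-likelihood, TMM scaling, edgeR's low-count filter) in 1 fit of the 4 groups, with 4 residual degrees of freedom and a biological coefficient of variation of 27.2%. P-values were adjusted by Benjamini-Hochberg over 13999 genes, with 0.05 as the threshold. Log2 fold changes have the group named first on top, and the SE is the size of the log2 fold change over the square root of F. The script was run on simulated counts with less spread than these libraries, which checks the direction of its fold changes and not its power here. Replicates are not said to come from separate animals, so p-values measure the spread between libraries, which may be technical. The floor covers counting error only, as reads carry no molecular identifiers.

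The 10 genes, the gene lists and the alternatives were chosen with earlier results of these data known. The rule for naming other genes took, per comparison and list, up to 3 genes past the threshold in each direction and, where none passed, the 2 with the smallest p. Profile likeness used log2(CPM + 0.5) and genes with a mean of at least 5 CPM. Alternatives were RLE size factors, DESeq2 1.42.0, no filter, a filter of 1 CPM in 2 libraries, fewer libraries, a replicate block and summed Hspa1a and Hspa1b counts.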

Additional observations from a re-analysis of the deposited data

How the results depend on the processing

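The 0 of 10 heat shock genes called in the Yap1 comparison was 0 to 2 when 1 library was left out and 2 with both doubted libraries left out (Yap control replicate 2 and the one labelled Ctgf knockout replicate 2). The 0 of the Ctgf comparison stayed 0 under every alternative run, and that of the difference was 0 to 1 when 1 library was left out and 0 under the others. For the controls of the lines the 2 became 6 with DESeq2, 0 in a fit of only these libraries, 7 without both doubted libraries, 0 to 5 when 1 library was left out (0 without either Yap1 knockout or either Ctgf control, 5 without Yap control replicate 1) and 8 over 4 against 4 libraries, a setting chosen after seeing the data. Fewer libraries also leave fewer residual degrees of freedom, and the cause of these changes was not tested. Over all genes the Yap1 comparison called 4, against 558 with DESeq2, 37 without a filter, 19 with the replicate block, 938 without both doubted libraries and 3728 without Yap control replicate 1. The difference called 0 genes, against 166 with DESeq2, 143 without both doubted libraries and 2092 without Yap control replicate 1. Between the controls 333 genes were called, against 1605 with DESeq2, 0 in a fit of only these libraries, 4056 without both doubted libraries, 3699 without Yap control replicate 1 and 1012 without replicate 2.

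Log2 fold changes reversed without both doubted libraries, in the Yap1 comparison to 0.10 (Hsp90ab1), 0.21 (Hspd1) and 0.032 (Clpp). In the Ctgf comparison they became 0.50 (Hspa1b), 0.018 (Hspa8), 0.15 (Hsph1), 0.12 (Dnajb1), 0.070 (Hsp90aa1), 0.029 (Hsp90ab1), 0.033 (Hspd1) and 0.18 (Hspe1). In the difference they became -0.97 (Hspa1a), -0.39 (Hsp90aa1) and 0.073 (Hsp90ab1), and between the controls -0.046 (Hsf4). Hspa1b kept its sign in the difference, at -2.96 there and -1.49 with all libraries. None of these had passed the threshold in the first place.

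Leaving out 1 library gave ranges across 0 in the Yap1 comparison of -1.49 to 0.79 (Hspa1a), -0.32 to 0.022 (Hsp90aa1), -0.68 to 0.10 (Hsp90ab1), -0.26 to 0.22 (Hspd1), -1.22 to 0.033 (Clpp), -0.041 to 0.68 (Manf) and -0.025 to 0.56 (Pdia6). In the Ctgf comparison they were -1.69 to 0.50 (Hspa1b), -0.61 to 0.017 (Hspa8), -0.67 to 0.15 (Hsph1), -0.48 to 0.12 (Dnajb1), -0.27 to 0.16 (Hspb1), -0.68 to 0.070 (Hsp90aa1), -0.31 to 0.028 (Hsp90ab1), -0.34 to 0.033 (Hspd1), -0.38 to 0.18 (Hspe1), -1.92 to 0.71 (Ctgf) and -0.010 to 0.058 (Yap1). In the difference they were -0.42 to 2.33 (Hspa1a), -2.24 to 0.18 (Hspa1b), -0.35 to 0.25 (Hspa8), -0.21 to 0.51 (Hsp90aa1), -0.55 to 0.24 (Hsp90ab1), -0.12 to 0.36 (Hspd1) and -0.85 to 0.013 (Hspe1), and between the controls -0.048 to 1.57 (Hsf4).

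Replicate numbers were not taken as pairs. The titles of the Yap controls name a numbered knockout, which matches the library number of the same-numbered knockout in replicate 2 but not in replicate 1, and they name no shared litter or day. The difference between replicates 1 and 2 in the knockouts was set against that in the controls, over 13999 genes. The correlation was 0.154 in the Yap line and 0.103 in the Ctgf line. With the replicate block 0 of the 10 were called in either knockout comparison. The block was not run between the controls, where the number is nested in the line. Depth limits Hspa1a, with 18 to 376 counts per library.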
